A study of Rattus norvegicus with 20 samples.

Results

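Cells given a Wnt stimulus for 1 d and then left without it for 2 d were compared with cells kept under the stimulus for all 3 d. The comparison took 6 of the 20 libraries of the series, chosen by their treatment profile in the labels, and each was tied to its counts through the well named in its description. The withdrawn arm held 3 libraries (1 d ON, 2 d OFF) and the sustained arm 3 (3 d ON), and each arm had 1 library for each inducer: CHIR99021, Wnt3a and light.

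The cells were rat adult hippocampal neural stem cells of the strain Fisher 344, grown in culture. All 6 libraries, and every other stimulated library, came from cells transduced with optoWnt and selected with puromycin, including those given CHIR99021 or Wnt3a. During treatment the cells stood in basal medium with N-2 supplement and a little serum. CHIR99021 (3 mM in the labels) is a small-molecule inhibitor of the kinase GSK-3. Wnt3a, a secreted Wnt ligand, was given at 100 ng/mL. Light was applied with LED arrays to optoWnt, an engineered light-sensitive activator of the canonical Wnt pathway. How each inducer was taken away from the cells, whether the cells given CHIR99021 or Wnt3a were kept in the dark, what promoter drives optoWnt and whether the line is 1 clone are not stated in the labels. Both arms were collected at 3 d. Beside them stand 2 unstimulated libraries of 3 d, 1 wild-type and 1 optoWnt, whose titles also carry the word ON.

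In the canonical Wnt pathway, a destruction complex holding GSK-3 keeps β-catenin low in unstimulated cells. When the pathway is on, β-catenin accumulates, enters the nucleus and acts with TCF and LEF factors on target genes, some of which encode inhibitors of the same pathway. CHIR99021 acts on the kinase inside the cell, and the ligand and optoWnt act at the receptor level. In adult hippocampal neural stem cells, Wnt signalling is known for its part in neuronal differentiation. The comparison asks whether that signal must last for its transcripts to last.

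Messenger RNA 3′ ends were counted as reads per gene. Total reads in the sustained arm were 4417181 (CHIR99021), 4969526 (Wnt3a) and 2421160 (light), and in the withdrawn arm 4468612, 3485025 and 4588870 in the same order. Levels are given in CPM, a gene's reads scaled to 1 common library total after TMM adjustment. A level of 3 reads, the limit that a count of 0 allows, lay between 0.551 and 1.2 CPM in these libraries, counting error only. Genes are named by Ensembl ID because 0 of the IDs could be paired with a symbol in the files used here, so neither pathway genes nor the labelled cell type could be checked by name.

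The 6 libraries did not fall into the arms of the design. On the first principal component of all 20 libraries, which held 29.4% of the variance, 6 libraries scored -41.5 or lower and the other 14 scored 8.9 or higher. Of the low-scoring 6, 3 belong to this comparison: CHIR99021 withdrawn (-43.9), Wnt3a withdrawn (-68.7) and light sustained (-41.5). Each inducer therefore contributed 1 low-scoring and 1 other library, in the withdrawn arm for CHIR99021 and Wnt3a and in the sustained arm for light. No label names a batch that follows this split. A group of 74 genes, picked as at least 2-fold lower in each low-scoring library than in each other one, summed to between 1059 and 1234 CPM in these 3 libraries and to between 5835 and 6619 CPM in the remaining 3.

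Pairwise distances did not follow the arms or the inducers. They were taken over the 9598 genes whose mean across the 6 libraries reached 5 CPM. The withdrawn CHIR99021 and withdrawn Wnt3a libraries were the closest pair, with 9.37% of genes at least 2-fold apart. Next came withdrawn CHIR99021 and sustained light (12.8%), both low-scoring, and sustained CHIR99021 and sustained Wnt3a (13.97%), neither low-scoring. The other libraries were not all alike, since sustained CHIR99021 and withdrawn light, neither low-scoring, differed in 37.8% of genes. Within an inducer, the withdrawn and sustained libraries were 2-fold apart in 29.9% (CHIR99021), 34.4% (Wnt3a) and 34.5% (light) of genes. These 3 pairs each combine 1 low-scoring with 1 other library.

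**Figure D1:**
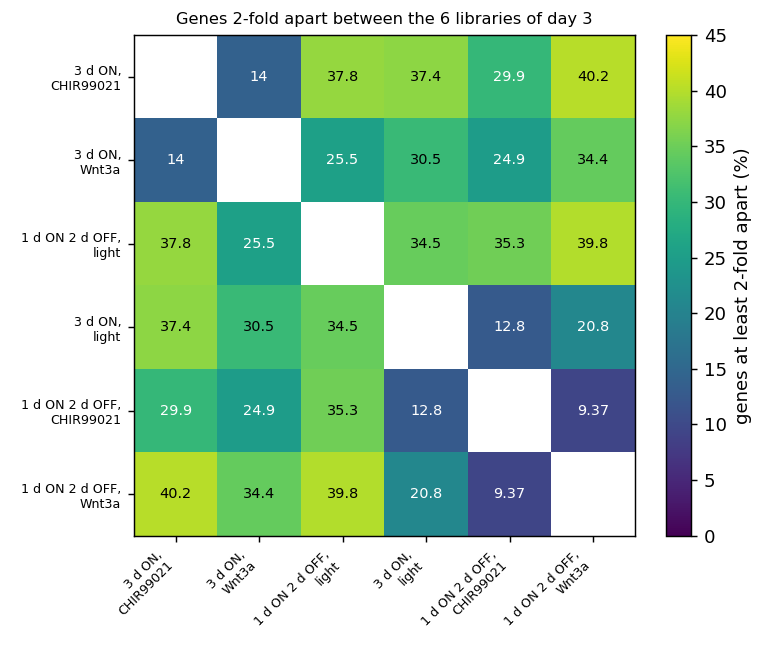
Share of 9598 genes at least 2-fold apart (%, colour and number) for every pair of the 6 libraries of day 3, on both axes. The low-scoring libraries (last 3 rows) differ from one another in 9.37% to 20.8% of genes, and the 3 within-inducer pairs in 29.9% to 34.5%.

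Pooled over inducers, a small group of transcripts was much lower in all 3 withdrawn libraries than in the matching sustained ones, but no gene passed the test over all genes. edgeR's quasi-likelihood test called 0 of 12190 genes at an adjusted p under 0.05 (0% called, smallest adjusted p 0.29, n = 3 per arm). At an unadjusted p below 0.05 stood 1095 genes, beside 610 for chance alone, 597 with higher and 498 with lower levels after withdrawal. At the smallest adjusted p stood 18 genes, of which 17 were lower after withdrawal. DESeq2 called 47 genes, 39 of them lower, and edgeR called 21, all lower, with the first component as a covariate.

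ENSRNOG00000002331 had the largest pooled difference. In the sustained arm it stood at 307 CPM under CHIR99021, 1798 CPM under Wnt3a and 1152 CPM under light. In the withdrawn arm it stood at 19.3, 16.7 and 8.81 CPM in the same order. The arms did not overlap, and the lowest sustained library lay far above the highest withdrawn one. The pooled log2 difference was -6.25 (SE 1.27), which was not called by edgeR (adjusted p = 0.29) and was called by DESeq2 (adjusted p = 0.00035). Among the low-scoring libraries alone, the 2 withdrawn ones held 19.3 and 16.7 CPM against 1152 CPM for sustained light, and among the others withdrawn light held 8.81 CPM against 307 and 1798 CPM. Unstimulated cells of 3 d held 4.50 (wild-type) and 6.84 CPM (optoWnt), below all 3 withdrawn libraries. Withdrawn CHIR99021 and Wnt3a stood more than 2-fold above both, and withdrawn light less than 2-fold.

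The same ID was also followed through the earlier profiles. At 1 d ON, ENSRNOG00000002331 stood at 459 CPM under CHIR99021, at 242 CPM under light and at 7.01 CPM under Wnt3a, in the shallowest library of the series (696463 reads). After 1 d OFF it stood at 17.5 CPM for CHIR99021 and 7.35 CPM for light, near its level after 2 d OFF. For Wnt3a it stood at 114 CPM after 1 d OFF, above the 1 d ON library and above 2 d OFF. At 5 d ON it held 251 CPM under CHIR99021 and 104 CPM under Wnt3a.

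ENSRNOG00000055155 had the second largest pooled difference among genes lower in every inducer. It stood at 99.3 CPM (CHIR99021), 35.6 CPM (Wnt3a) and 5.20 CPM (light) in the sustained arm and at 3.26, 1.73 and 0.220 CPM in the withdrawn arm. The arms did not overlap, but sustained light lay close to withdrawn CHIR99021, and the light ratio rests on 13 reads against 1 (ratio 23.6, with counting error alone giving a 95% range of 3.55 to 1003). The pooled log2 difference was -4.53 (SE 1.15, edgeR adjusted p = 0.50). DESeq2 called it (adjusted p = 0.011), and edgeR with the first component as a covariate did not (log2 difference -3.16, adjusted p = 0.19). Unstimulated wild-type cells of 3 d held 23.8 CPM and optoWnt cells 1.03 CPM, so the sustained light level lay within the unstimulated range.

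In the other direction the differences were smaller and the transcripts scarcer. ENSRNOG00000020650 stood at 9.11 CPM (CHIR99021), 15.3 CPM (Wnt3a) and 8.37 CPM (light) after withdrawal and at 1.79, 2.57 and 0.800 CPM under sustained stimulation. The sustained counts were 8, 14 and 2 reads, and the light ratio was 10.5 (95% range 2.70 to 89.5, counting error alone). At 3 d without stimulus, wild-type cells held 1.00 CPM, within the sustained range, and optoWnt cells 5.30 CPM, between the arms. At 5 d ON it stood at 4.22 CPM under CHIR99021 and at 10.8 CPM under Wnt3a, within the withdrawn range. The arms did not overlap, and the pooled log2 difference was 2.56 (SE 0.85, edgeR adjusted p = 0.52). Without the 3 low-scoring libraries this difference was 0.38. The same fit gave -5.31 for ENSRNOG00000002331, -6.41 for ENSRNOG00000055155 and 2.92 for ENSRNOG00000054033. It left only light in the withdrawn arm and only CHIR99021 and Wnt3a in the sustained arm. No inducer was then paired, and the term for light came from other profiles.

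ENSRNOG00000054033 stood at 5.64, 13.0 and 11.0 CPM after withdrawal and at 0.895, 2.20 and 2.00 CPM under sustained CHIR99021, Wnt3a and light. The pooled log2 difference was 2.53 (SE 0.89, edgeR adjusted p = 0.52), again without overlap between the arms. Unstimulated 3 d cells held 2.75 CPM (wild-type) and 6.15 CPM (optoWnt), the latter above withdrawn CHIR99021. Neither of these IDs was called by DESeq2 (adjusted p = 0.13 and 0.19).

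**Figure D2:**
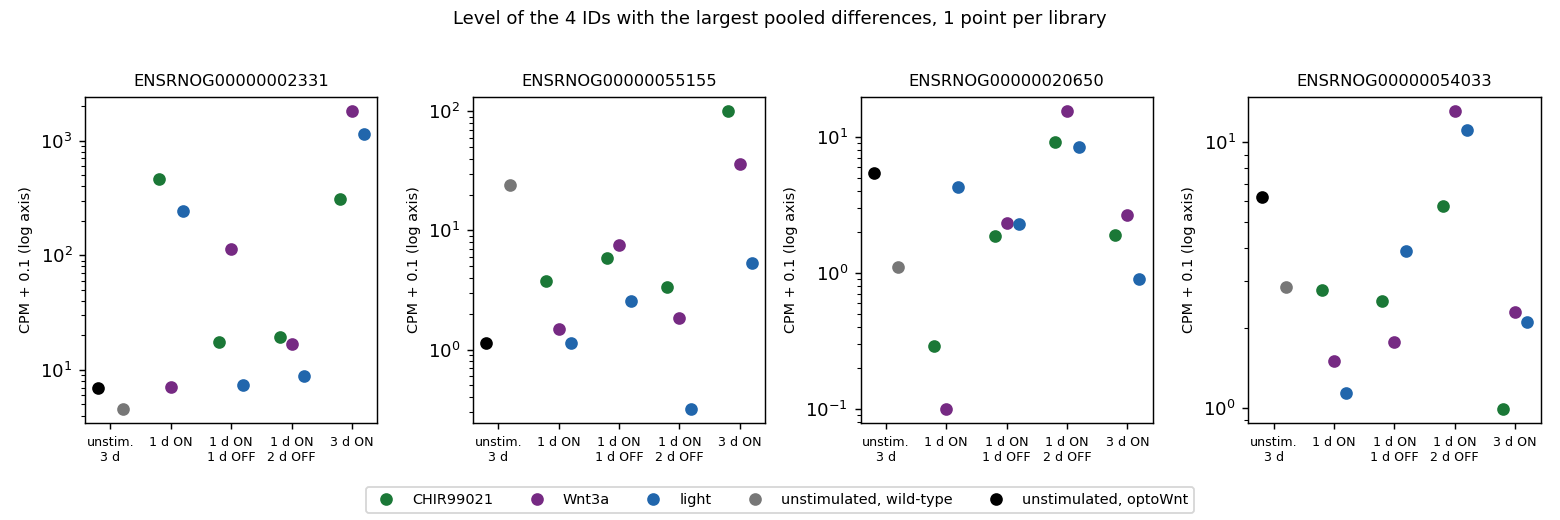
Level (CPM + 0.1, log axis) of the 4 IDs with the largest pooled differences among genes 2-fold apart in every inducer, by profile, with 1 point per library coloured by inducer or, when unstimulated, by genotype. ENSRNOG00000002331 lies at 307 CPM or more in the 3 d ON libraries and at 19.3 CPM or less after 2 d OFF.

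Across all genes, 66 were at least 2-fold lower in the withdrawn than in the sustained library under each of the 3 inducers, which is 0.688% of the 9598 genes, and 52 were at least 2-fold higher under each (0.542%). No test stands behind these counts, since they come from 1 library per inducer and arm. The median pooled log2 difference was -2.03 in the 66 (range -6.25 to -1.13) and 1.55 in the 52 (range 1.10 to 2.56). Differences of 4-fold or more under all inducers were found in 9 genes that were lower and 2 that were higher. The 66 had a median of 51.8 CPM in the sustained arm and 10.9 CPM in the withdrawn arm, and the 52 had 8.37 and 24.0 CPM. By inducer, the medians of the 66 were -2.27 (CHIR99021), -1.58 (Wnt3a) and -1.62 (light), and CHIR99021 gave the largest of the 3 differences for 39 of them. The members nearest the threshold had a smallest difference, in size, of 1.00 on the log2 scale (lower) and 1.01 (higher), and the genes just outside it had 0.999944 and 0.99.

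Taken across inducers, the arms overlapped in 16 of the 66 and 14 of the 52 and were apart in the rest. Over all 9598 genes, the arms were apart in 4.96% with the withdrawn arm lower and in 5.58% with it higher. The 2-fold rule used the same values, so these counts only describe the genes. None of the 74 genes that mark the low-scoring libraries was among the 66 or the 52. By the way they were picked, all 74 were 2-fold lower after withdrawal under CHIR99021 and Wnt3a and 2-fold higher under light.

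Of the genes called under other settings, the lower ones came largely from the 66. DESeq2, edgeR with the first component as a covariate and edgeR with no low-count filter called 47, 21 and 17 genes, of which 27, 17 and 15 were among the 66. All 12 genes called under each of these 3 settings were among the 66. The settings share the 6 libraries that chose the 66, so this is no independent support.

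Values within the groups of libraries with like scores were set beside the pooled ones as a description only, since the same 6 libraries chose the 66 and the 52. Among the low-scoring libraries (withdrawn CHIR99021 and Wnt3a, sustained light), the median log2 difference of the 66 was -0.86. In the withdrawn libraries, 30 of the 66 were 2-fold lower, against 5.92% of all genes. Among the others (withdrawn light, sustained CHIR99021 and Wnt3a), the median was -2.97, and all 66 were 2-fold lower (all genes 15.9%). For the 52 genes that were higher, the medians were 1.10 and 1.98. Of these, 29 and 44 were 2-fold higher (all genes 7.91% and 14.8%). Each of these contrasts also compares different inducers, and the inducer cannot be told apart from withdrawal within either group.

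The 66 and 52 genes were then read in libraries that did not choose them. At 5 d ON with CHIR99021, 57 of the 66 were at least 2-fold above the mean of the unstimulated 5 d libraries (median log2 difference 2.66), against 15.5% of all genes. At 1 d ON with CHIR99021, 43 of the 66 were 2-fold above the mean of unstimulated 0 d (median 1.67, all genes 11.8%). At 1 d the medians were lower with Wnt3a (0.59, 24 genes 2-fold higher) and light (0.54, 25 genes), where 15.3% and 16.9% of all genes were 2-fold higher. Cells with no stimulus also stood above 0 d in the 66 in some comparisons. In wild-type cells the median was 1.22 at 3 d (38 genes 2-fold higher, all genes 23.2%), with the 0 d library low-scoring. At 5 d in wild-type cells, with both libraries low-scoring, it was 0.34. There 21 genes were 2-fold higher and 17 lower (all genes 21.5% and 22.0%). In optoWnt cells the median was 0.53 at 5 d (25 genes 2-fold higher, all genes 12.2%) and -0.13 at 3 d (10 genes, all genes 9.49%). Levels above 0 d at 1 d ON therefore cannot be told apart from time in culture under any inducer, since no unstimulated library of 1 d was analysed here. The 0 d mean also includes the low-scoring wild-type library. At 5 d ON with Wnt3a, a low-scoring library, the 66 were spread to both sides, 26 being 2-fold or more above and 25 below unstimulated 5 d (median -0.03, all genes 15.6% and 20.4%).

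The 52 genes that were higher after withdrawal lay below the unstimulated 5 d mean at 5 d of CHIR99021, with 27 at least 2-fold lower (median -1.11, all genes 12.2%). Under Wnt3a at 5 d they lay above it, with 21 at least 2-fold higher (all genes 15.6%) and a median of 0.90. The unstimulated genotypes also differed in these genes at 3 d: relative to optoWnt cells, wild-type cells were 2-fold higher in 24 of the 66 (5.98% of all genes) and 2-fold lower in 21 of the 52 (6.11% of all genes). Neither unstimulated library is low-scoring, and both genotypes were used together as the reference below.

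The first day of withdrawal offers another reading, from libraries outside this comparison. The 1 d OFF libraries are of day 2 and the 1 d ON libraries of day 1. Withdrawal therefore cannot be told apart from time in culture here, since no unstimulated library of day 2 was analysed. After 1 d OFF, relative to 1 d ON, the 66 stood lower by a median log2 of -0.35 under CHIR99021 and -0.62 under light, with 18 and 21 genes 2-fold lower (3.17% and 5.98% of all genes). Under Wnt3a they stood higher, at a median of 0.76, 30 of the 66 being 2-fold or more above 1 d ON and 1 below, where 10.5% of all genes were 2-fold higher. The Wnt3a 1 d ON library held 696463 reads and the 1 d OFF library 5004731, and the part of depth in this difference was not tested.

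Relative to the mean of the unstimulated 3 d libraries, the 66 stood at median log2 differences of 2.74, 1.45 and 0.85 in the sustained libraries of CHIR99021, Wnt3a and light. In the withdrawn libraries they stood at 0.40, -0.29 and -0.86. Withdrawn CHIR99021 lay slightly above, and withdrawn light below, the unstimulated genotypes themselves, which stood at 0.36 (wild-type) and -0.36 (optoWnt). The 52 stood at -1.32, -0.74 and -0.61 in the sustained libraries and at 0.14, 0.77 and 0.90 in the withdrawn ones. All genes had medians between -0.05 and 0.01 in the same libraries.

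**Figure D3:**
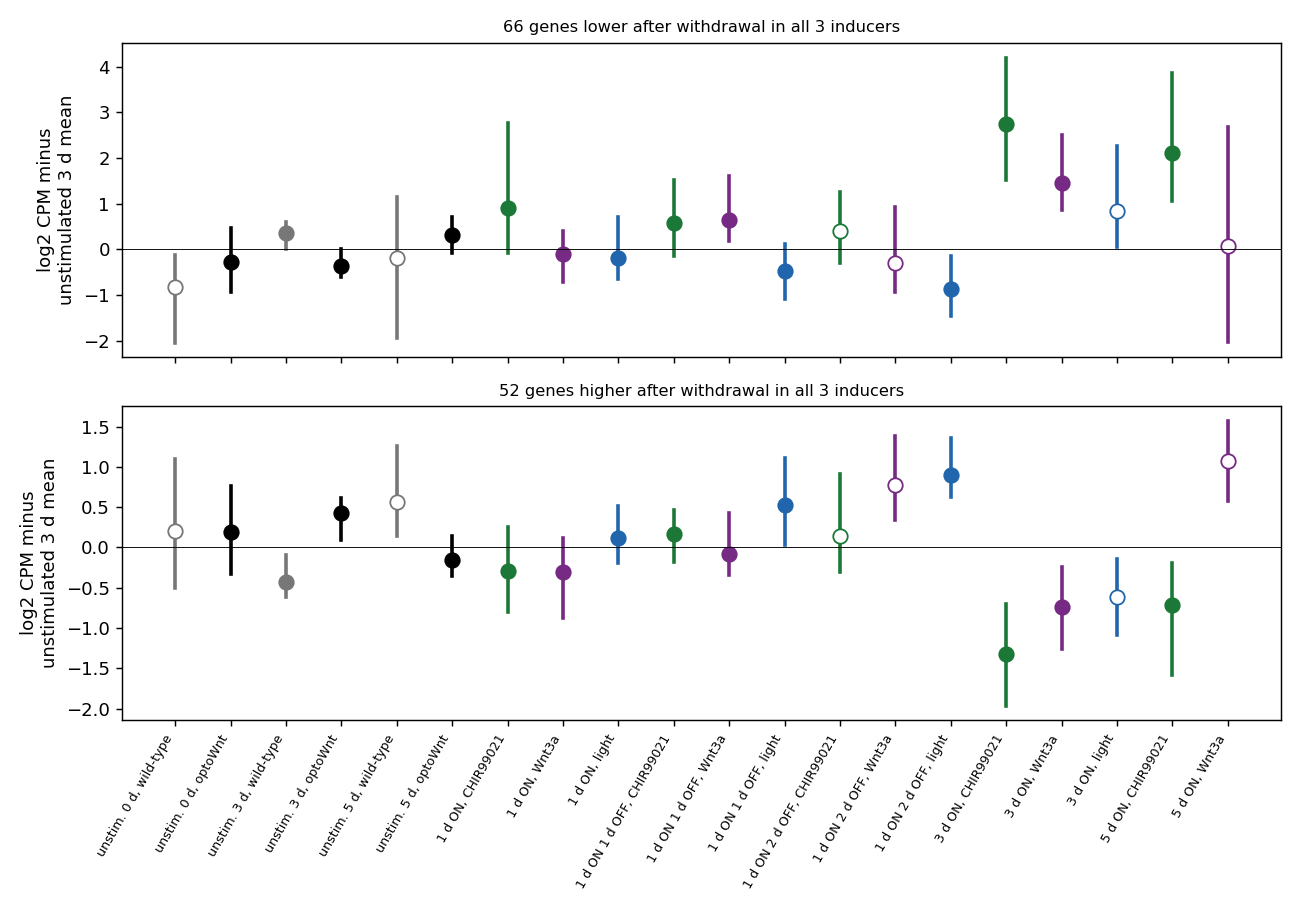
Median (point) and interquartile range (bar) of log2 CPM minus the mean of the 2 unstimulated 3 d libraries, for the 66 genes lower (upper panel) and the 52 genes higher (lower panel) after withdrawal in all 3 inducers, in each of the 20 libraries. Colours are green for CHIR99021, purple for Wnt3a, blue for light, grey for unstimulated wild-type and black for unstimulated optoWnt, and open points are low-scoring libraries. The 3 d ON libraries, which chose the genes, stand at 0.85 to 2.74 in the upper panel.

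By inducer, withdrawal of CHIR99021 left 1525 of the 9598 genes at least 2-fold lower (15.9%) and 1347 at least 2-fold higher (14%) than sustained CHIR99021. With 1 library per arm there is no replicate. The IDs named for each inducer are ordered by their difference in log2 CPM with a prior count of 2, which shrinks differences that rest on few reads. A fit in which the other 14 libraries supply the spread, and these lone libraries are assumed to vary like them, called 0 of 12190 genes (edgeR, 0% called, smallest adjusted p 0.69, 824 genes below 0.05 before adjustment). DESeq2 called 44.

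ENSRNOG00000010875 came first among IDs lower after withdrawal, at 83.2 CPM (372 reads) under sustained and 0.217 CPM (1 read) after withdrawn CHIR99021. The ratio was 383 (95% range 68.4 to 15187, counting error alone), and DESeq2 called it (adjusted p = 0.0086). CHIR99021 also gave 23.9 and 97.4 CPM at 1 and 5 d ON, while at 3 d ON Wnt3a gave 6.24 CPM (34 reads) and light 1.20 CPM (3 reads). The withdrawn libraries of Wnt3a and light held 0 and 4 reads, so this ID was lower after withdrawal of Wnt3a as well. Unstimulated 3 d cells held 0.500 and 1.03 CPM. ENSRNOG00000031045 stood at 248 CPM under sustained and 3.69 CPM after withdrawn CHIR99021. Under Wnt3a it stood at 238 and 16.1 CPM. Under light it was higher in the withdrawn library (80.0 against 14.4 CPM), and all 3 low-scoring libraries of the comparison held 16.1 CPM or less.

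Of the transcripts that were higher once CHIR99021 was removed, ENSRNOG00000017725 stood at 2.46 CPM under sustained CHIR99021 and at 246 CPM after withdrawal. Unstimulated 3 d cells held 772 (wild-type) and 795 CPM (optoWnt), and at 5 d CHIR99021 still held it at 3.10 CPM. It was also higher after withdrawal of Wnt3a (914 against 231 CPM) and light (832 against 502 CPM). ENSRNOG00000021023 was at 3.80 CPM under sustained and 271 CPM after withdrawn CHIR99021, with 598 and 664 CPM in unstimulated cells. Under Wnt3a (595 against 350 CPM) and light (463 against 544 CPM) its arms differed by less than 2-fold. DESeq2 called both for CHIR99021 (adjusted p of 0.00014 and 0.00017), and edgeR did not (adjusted p = 0.69 each).

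For Wnt3a, 1842 genes were at least 2-fold lower (19.2%) and 1463 at least 2-fold higher (15.2%) after withdrawal. edgeR called 0 of 12190 (0% called, smallest adjusted p 0.63), with 613 below 0.05 before adjustment beside 610 for chance alone, and DESeq2 called 0. First among IDs lower after withdrawal was ENSRNOG00000002331, described above, with 9790 reads against 58 (ratio 108, 95% range 83.1 to 142, counting error alone). ENSRNOG00000007607 stood at 101 CPM under sustained Wnt3a and 3.46 CPM after withdrawal, but under light the withdrawn library was the higher one (22.5 against 0.400 CPM, 102 reads against 1, ratio 56.2 with a 95% range of 9.86 to 2240). Unstimulated cells of 3 d held 22.5 CPM (wild-type) and 5.98 CPM (optoWnt).

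The IDs that came first among those higher after Wnt3a withdrawal were scarce transcripts. ENSRNOG00000059789 had 3 reads under sustained and 63 after withdrawn Wnt3a (0.551 and 18.2 CPM), which is a ratio of 33.0 (95% range 10.8 to 164, counting error alone). ENSRNOG00000060012 stood at 1.65 and 28.8 CPM. Both IDs were lower after withdrawal of light, and both had their higher value in the low-scoring library under each inducer (8.68 against 4.25 CPM and 11.3 against 1.57 CPM for CHIR99021, in that order of IDs). With the first component as a covariate, edgeR's log2 differences for Wnt3a went from 4.96 to 3.25 and from 4.10 to 1.58, in the same order. The cause of these differences was not tested.

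For light, 1547 genes were at least 2-fold lower (16.1%) and 1761 at least 2-fold higher (18.3%) in the withdrawn library. Higher genes outnumbered lower ones for light alone, whose low-scoring library is the sustained one. Under every inducer, more genes were 2-fold lower than 2-fold higher in the low-scoring library. edgeR called 0 of 12190 (0% called, smallest adjusted p 0.17), with 1601 below 0.05 before adjustment, and DESeq2 called 33. ENSRNOG00000002331 again came first in that order among IDs lower after withdrawal, with 2880 reads against 40 (ratio 131, 95% range 95.8 to 183, counting error alone). ENSRNOG00000008570 had 98 reads (39.2 CPM) under sustained light and 0 after withdrawal, so its fold may exceed that of ENSRNOG00000002331. It was 59.3-fold lower with 3 reads put in place of 0, and counting error alone gave a lower 95% limit of 47.3-fold. It was also lower after withdrawal of CHIR99021 (24.8 to 4.34 CPM) and Wnt3a (14.1 to 2.59 CPM), and stood at 0.250 and 1.03 CPM in unstimulated 3 d cells.

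The IDs that came first among those higher after light withdrawal were absent from the counts of sustained light. ENSRNOG00000013422 had 0 reads under sustained light and 114 (25.1 CPM) after withdrawal. That is 20.9-fold higher with 3 reads put in place of 0 (lower 95% limit 16.7-fold, counting error alone). It was lower after withdrawal of CHIR99021 (1.52 against 6.49 CPM) and Wnt3a (6.92 against 15.2 CPM). ENSRNOG00000056337 had 0 and 88 reads (19.4 CPM), 16.2-fold higher by the same reckoning (lower 95% limit 12.9-fold). It held 3.12 CPM or less in the 4 libraries of CHIR99021 and Wnt3a. At 1 d ON with light, ENSRNOG00000013422 stood at 28.7 CPM and ENSRNOG00000056337 at 18.2 CPM, near their levels after 2 d OFF. After 1 d OFF they stood at 4.90 and 0.272 CPM in the same order. Both IDs had their lower value in the low-scoring library under each inducer. The sustained light library is low-scoring and was the shallowest of the 6.

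The 3 inducers were set against one another gene by gene. Of the genes 2-fold lower after withdrawal, CHIR99021 and Wnt3a shared 1013, which is 66.4% of those of CHIR99021 and 55.0% of those of Wnt3a. CHIR99021 and light shared 126 (8.26% and 8.14%), and Wnt3a and light 122 (6.62% and 7.89%). Of the 1013, light withdrawal left 504 at 2-fold or more above sustained light and 66 at 2-fold or more below it. Of the 658 genes 2-fold higher under both CHIR99021 and Wnt3a, 249 were 2-fold lower and 52 2-fold higher under light. Across the 9598 genes, Pearson's r between the differences was 0.68 for CHIR99021 and Wnt3a, -0.30 for CHIR99021 and light and -0.42 for Wnt3a and light. Genes are not independent replicates, and the signs of these r match the placing of the low-scoring libraries, which lie in the withdrawn arm for CHIR99021 and Wnt3a and in the sustained arm for light. Whether withdrawal acted differently between inducers therefore cannot be told apart from the library scores.

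The test of a difference between inducers called 0 of 12190 genes (edgeR, 0% called, smallest adjusted p 0.37). Before adjustment 1485 genes lay below 0.05, beside 610 for chance alone, and DESeq2 called 125. For ENSRNOG00000002331 the interaction had an unadjusted p of 0.49, and for ENSRNOG00000055155 of 0.98.

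**Figure D4:**
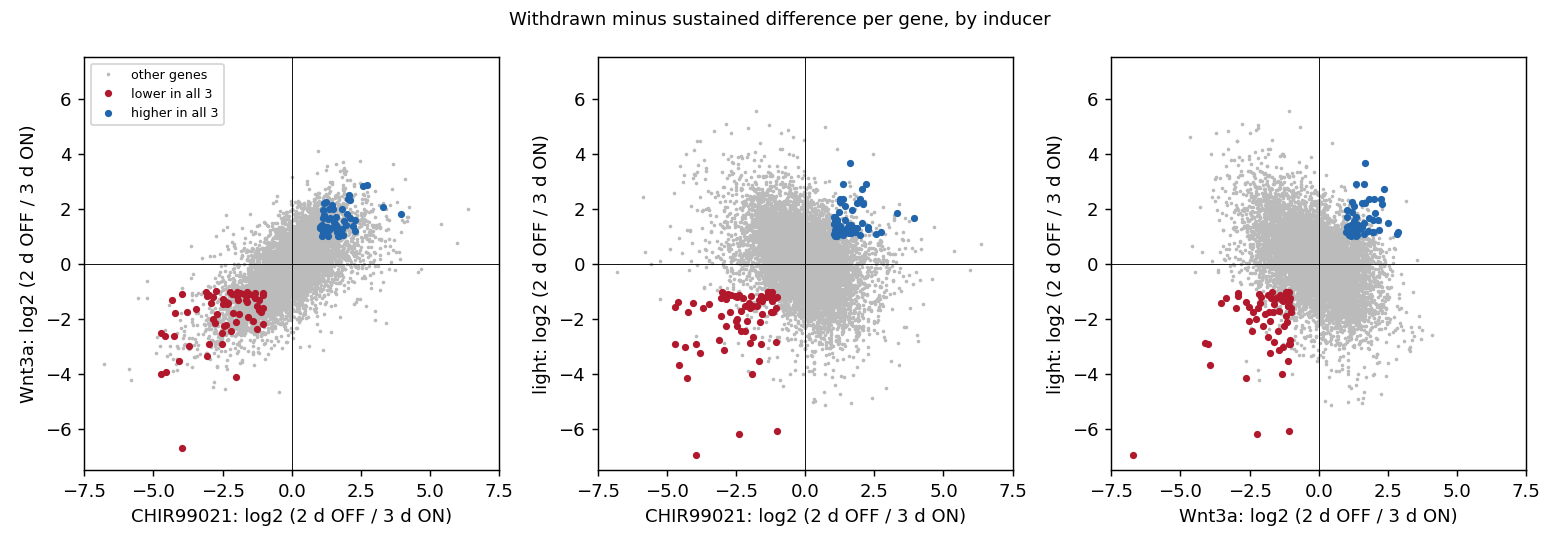
Log2 difference (withdrawn over sustained) per gene for each pair of inducers, 9598 genes, with the 66 genes lower in all 3 in red and the 52 higher in all 3 in blue. CHIR99021 and Wnt3a slope upward together (r 0.68), and both slope downward against light (r -0.30 and -0.42).

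Genes that marked long stimulation in other libraries were read in this comparison. Its 6 libraries set the minimum mean of 5 CPM that defines the 9598 genes, and their differences took no part in the choice. Of the 9598 genes, 127 were at least 2-fold higher in both 5 d ON libraries (CHIR99021 and Wnt3a) than in both unstimulated 5 d libraries. After withdrawal of CHIR99021, 65 of the 127 (51.2%) were 2-fold lower than under sustained CHIR99021 (median -1.04, all genes 15.9%). After withdrawal of light, 62 of the 127 (48.8%) were 2-fold lower (median -0.99, all genes 16.1%), although no light library entered the choice. For Wnt3a the median was 0.28, with 29 genes (22.8%) 2-fold lower and 34 (26.8%) 2-fold higher, against 19.2% and 15.2% of all genes. Of the 127, 22 (17.3%) were among the 66, which is 33.3% of the 66. Relative to the mean of unstimulated 3 d, the 127 stood at medians of 2.37 (CHIR99021), 0.61 (Wnt3a) and 0.95 (light) in the sustained libraries. In the withdrawn libraries they stood at 1.32, 0.98 and -0.06 in the same order, so withdrawn CHIR99021 and Wnt3a remained above unstimulated cells.

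The 155 genes that were 2-fold lower at 5 d ON showed the opposite pattern. They stood higher after withdrawal of CHIR99021 (median 0.65, 54 genes 2-fold higher) and light (median 0.95, 75 genes), where 14% and 18.3% of all genes were 2-fold higher. After withdrawal of Wnt3a they stood lower (median -0.66, 42 genes 2-fold lower against 19.2% of all genes). Relative to the mean of unstimulated 3 d, the 155 stood at medians of -1.63 (CHIR99021), -0.08 (Wnt3a) and -0.79 (light) in the sustained libraries. In the withdrawn libraries they stood at -0.94, -0.72 and 0.22 in the same order. The choice of both sets used wild-type 5 d and Wnt3a 5 d ON, which are low-scoring. Among the low-scoring libraries of day 3 the medians were 0.29 for the 127 and -0.08 for the 155, and among the others they were -1.54 and 1.11.

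**Figure D5:**
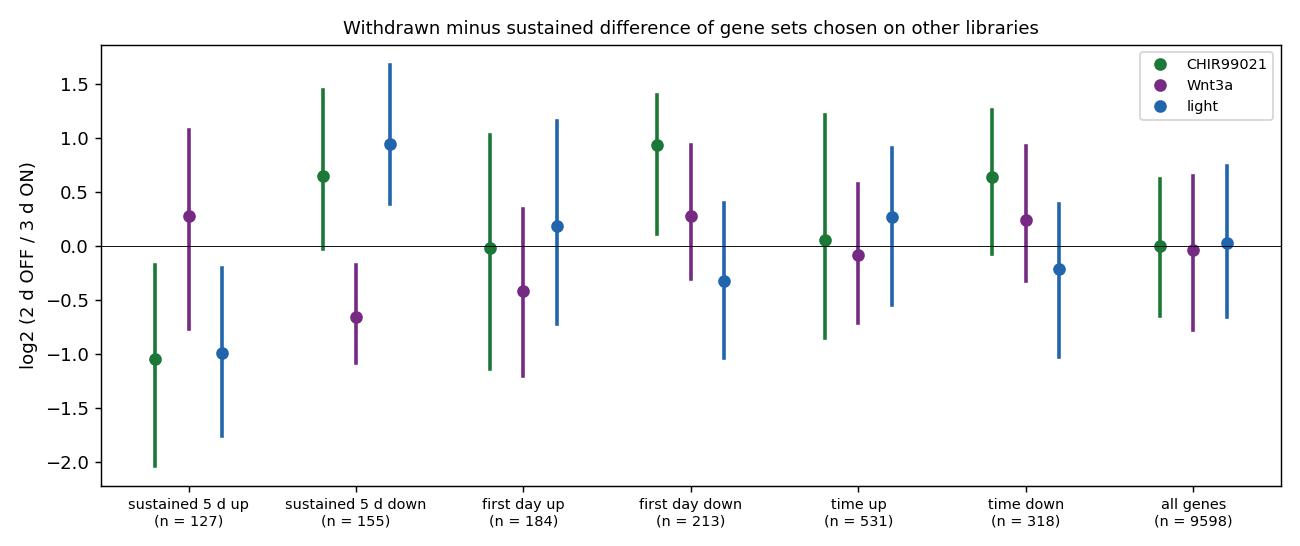
Median (point) and interquartile range (bar) of the log2 difference between withdrawn and sustained libraries for gene sets chosen on other libraries, by inducer, with the number of genes under each set. The sets chosen at 5 d lie at -1.04 and -0.99 (up) and at 0.65 and 0.95 (down) for CHIR99021 and light, and to the other side, at 0.28 and -0.66, for Wnt3a.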

How the data were processed

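Raw read counts per Ensembl gene ID, as whole numbers without normalization, were deposited for 20 libraries in 1 table. The libraries were made with Lexogen's QuantSeq 3′ chemistry from little RNA, per the labels. Bowtie2, featureCounts (Subread) and the build Rnor_6.0 are named in the submitters' processing notes. Tool versions, the strand setting and the handling of multiply mapping reads are not stated there, so reads of near-identical or overlapping genes may be misassigned. The table holds 32623 IDs, and 0 of its wells lacked a library.

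The pooled comparison used the quasi-likelihood test of edgeR 4.0.16 in R 4.3.3, with TMM scaling and filterByExpr by profile (12190 genes kept). The model had 11 coefficients (8 profiles, genotype and an inducer term that pairs the arms) and 9 residual degrees of freedom. For single inducers and their interaction, each of the 6 libraries had its own coefficient, which left 5 residual degrees of freedom from the other 14. Adjustment followed Benjamini and Hochberg over all genes tested, and called means an adjusted p under 0.05. The standard error is the log2 difference divided by the square root of F. Differences by inducer are of log2 CPM with a prior count of 2. DESeq2 1.42.0 was an alternative, and both edgeR fits were tested on simulated data.

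Each inducer had 1 library per profile, except that light had none at 5 d ON. Since separate cultures are not named in the labels, p-values measure only the spread between these libraries, which may be technical. The 15 gene lists and the cell type markers drawn up by symbol were not run, since 0 IDs could be matched. By the naming rule, at most 2 IDs per direction and comparison are printed: those with the largest differences among genes averaging 5 CPM or more and 2-fold apart (under every inducer, for the pooled comparison). The comparison, the gene sets and the tests were chosen with earlier results of these data known.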

Additional observations from a re-analysis of the deposited data

How the results depend on the processing

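The pooled count of 0 called genes held with relative log size factors, without the wild-type libraries, without the inducer term, in the 6 libraries alone and with any 1 of the 6 libraries left out (0 to 0 genes). It also held without the 3 low-scoring libraries, an alternative chosen after the data were seen. DESeq2 gave 47, the first component as a covariate 21, and testing without a filter on low counts 17. The labels give no replicate numbers. With the inducer as a replicate block in the 6 libraries alone, the count was 0 (smallest adjusted p 0.61), and without that block it was 0 (0.078).

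By inducer, DESeq2 called 44 genes for CHIR99021 and 33 for light and 125 for the interaction. With no low-count filter edgeR called 263 (CHIR99021), 107 (Wnt3a), 226 (light) and 757 (interaction), and with the first component as a covariate it called 27 for light. The cause was not tested. Every printed ID kept the sign of its difference in the settings run, except that DESeq2 gave ENSRNOG00000056337 no adjusted p and it was not compared there.

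The counts of 66 lower and 52 higher genes, and their alternatives, were chosen after the data were seen. At 4-fold they were 9 and 2, and with a minimum mean of 10 CPM the higher count was 30. The rule over 2 inducers gave 122 lower and 115 higher without CHIR99021, 126 and 151 without Wnt3a, and 1013 and 658 without light. With relative log size factors, 65 of the 66 and 50 of the 52 were kept, and with a prior count of 5 it was 49 and 41. Counts of 2-fold genes by inducer dropped at 4-fold to between 192 and 475. Leaving out an inducer removes both libraries of a single-inducer result, so that was not run, and neither was any setting on gene lists by symbol. The lowest total of the 6 libraries was 2421160 reads (sustained light), where 3 reads are 1.2 CPM.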

Other observations

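Genes apart from 0 d on the first day of stimulation were read at day 3. Of the 9598 genes, 184 were at least 2-fold higher under every inducer at 1 d ON than in either 0 d library. Their median log2 differences on withdrawal were -0.02 (CHIR99021), -0.41 (Wnt3a) and 0.19 (light), and 10 of them (5.43%) were among the 66 genes lower in all 3 inducers, against 0.688% of all genes. The 213 genes that were 2-fold lower at 1 d ON stood higher after withdrawal of CHIR99021 (median 0.94, 97 genes 2-fold higher, all genes 14%) and at 0.28 for Wnt3a and -0.32 for light.

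Genes that changed with time in unstimulated cells were read in the same way. The 531 genes at least 2-fold higher at 5 d than at 0 d in both genotypes had medians of 0.06, -0.08 and 0.27 for CHIR99021, Wnt3a and light. The 318 that were 2-fold lower with time stood at 0.64, 0.25 and -0.21, with 113 of them (35.5%) 2-fold higher after withdrawal of CHIR99021. The unstimulated wild-type libraries of 0 and 5 d are both low-scoring on the first component.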
